A study of Rattus norvegicus with 32 samples.

Results

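Epas1 and Hif1a encode the oxygen-regulated alpha subunits of hypoxia-inducible factors 2 and 1, and their transcripts were followed through 16 cultures of rat epithelial cells. All probe sets of the array that carry the symbol Epas1 alone or Hif1a alone were taken. There were 2, 1 for each gene (probe set 10882733 for Epas1 and 10885251 for Hif1a), among 15316 probe sets with exactly 1 gene symbol, which stand for 14511 genes. Epas1 was picked because its level differed between the TEC cultures grafted a second time and the ungrafted ones. Its values in any comparison that uses either of those groups are therefore a description, with no test. Hif1a was set beside it as the related factor and was tested in every comparison.

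The cells came from Sprague-Dawley rats whose cells constitutively express the enhanced green fluorescent protein, and every culture, controls included, carries this transgene. Thymic epithelial cells (TEC) support T cell development in the thymus, and hair follicle (HF) cells build the hair shaft and its sheaths. Both were grown on irradiated feeder cells of the mouse fibroblast line 3T3-J2, and total RNA was hybridised to 2 Affymetrix arrays per culture. The 12 TEC cultures were ungrafted (4), recovered from skin on nude mice after a first transplantation (4), or recovered after a second (4), and each of these groups held 3 clones and 1 bulk culture. TEC donors were embryos at E16 (5 cultures), newborns labelled P1 (3) and rats of 4 months (4). The HF cultures, all labelled P5, were 2 recovered after a first transplantation and 2 ungrafted, in each case 1 clone and 1 bulk culture. Recovered cultures carry other names than ungrafted ones, and no ungrafted culture went through the same recovery and regrowth, so exposure to skin, selection of cells and longer culture cannot be told apart. Nothing in the labels says that cultures came from separate animals, so p-values measure the spread between cultures. Tissue and the P5 label cannot be told apart either, since no TEC culture carries it.

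Each hypoxia-inducible factor is a pair of an alpha subunit and the stable partner Arnt. With oxygen present, prolyl hydroxylases (the Egln enzymes) mark the alpha subunits, the Vhl ligase complex binds the mark, and the protein is degraded. With little oxygen the alpha subunits persist, enter the nucleus and raise genes of glucose uptake, glycolysis, pH control and vessel growth. Hif1a is made by most cell types, whereas Epas1 is best known from endothelium, kidney and other specialised cells. An array measures the transcript and says nothing of the protein, on which most of the oxygen control acts.

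The promoters of both genes, and of Car12 and Slc2a1, which are textbook hypoxia targets and passed the test described further on, are shown because the DNA element bound by these factors is short and can be read directly. Each stretch holds 250 bases before and 50 after the annotated start in the RefSeq rat genome GRCr8, written 5′ to 3′ on the gene's strand. Capitals mark the letters ACGTG or GCGTG on either strand, the core of the hypoxia response element, with overlapping matches joined. The stretch of Epas1 lies at chr6:13624680-13624979 on the minus strand, that of Hif1a at chr6:98359648-98359947 on the plus strand, that of Car12 at chr8:76169565-76169864 on the plus strand and that of Slc2a1 at chr5:138002272-138002571 on the plus strand.
Epas1: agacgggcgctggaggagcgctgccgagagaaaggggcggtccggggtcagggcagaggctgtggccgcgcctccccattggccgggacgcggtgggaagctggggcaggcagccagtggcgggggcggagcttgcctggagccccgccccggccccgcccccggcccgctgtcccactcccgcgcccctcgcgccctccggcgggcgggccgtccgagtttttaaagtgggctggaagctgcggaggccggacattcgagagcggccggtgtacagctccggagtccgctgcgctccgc
Hif1a: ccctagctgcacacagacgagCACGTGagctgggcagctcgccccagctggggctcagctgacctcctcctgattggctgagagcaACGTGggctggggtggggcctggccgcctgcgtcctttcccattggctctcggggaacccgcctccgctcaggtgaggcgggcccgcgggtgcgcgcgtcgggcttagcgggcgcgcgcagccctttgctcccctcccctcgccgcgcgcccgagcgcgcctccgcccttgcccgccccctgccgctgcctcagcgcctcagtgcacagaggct
Car12: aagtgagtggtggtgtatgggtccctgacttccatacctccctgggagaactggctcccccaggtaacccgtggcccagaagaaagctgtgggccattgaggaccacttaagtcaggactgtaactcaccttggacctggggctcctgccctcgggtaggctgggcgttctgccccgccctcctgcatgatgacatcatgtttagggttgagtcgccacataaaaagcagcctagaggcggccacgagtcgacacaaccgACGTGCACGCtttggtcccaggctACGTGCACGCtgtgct
Slc2a1: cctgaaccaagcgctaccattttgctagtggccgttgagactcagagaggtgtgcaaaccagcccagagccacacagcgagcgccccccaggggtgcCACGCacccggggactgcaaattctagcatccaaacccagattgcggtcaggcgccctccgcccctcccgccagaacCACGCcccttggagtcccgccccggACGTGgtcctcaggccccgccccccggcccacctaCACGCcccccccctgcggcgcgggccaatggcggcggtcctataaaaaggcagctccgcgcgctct
Counting both strands, these letters occurred 0 times in the Epas1 stretch, 3 times in that of Hif1a, 4 times in that of Car12 and 4 times in that of Slc2a1. In Hif1a 1 of the 2 capital runs is the palindrome CACGTG, which counts on both strands and is also read by other factors of the same protein family. Of 33469 rat promoter stretches of this length, 13937 (41.6%) held at least 1 such match and 2148 (6.42%) held CACGTG. Of the shared hypoxia target genes listed here, 18 of the 23 with a sequence (78.3%) held a match, and of the glycolysis genes 10 of 16 (62.5%). Of the other genes called higher after the second grafting, Aldoc had 3 matches and Bmal1 had 0. A match is a description of the letters and not a bound site.

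Epas1 spanned a wide range. Its log2 signal ran from 5.18 to 10.09 over the 16 cultures, with an SD of 1.30, against a median SD of 0.21 over all probe sets, and 0.646% of probe sets varied more. This spread follows from the pick, since the cultures behind the selecting difference are among the 16. Hif1a ran from 10.32 to 11.61 with an SD of 0.42, and 14.8% of probe sets varied more. Signals of different probe sets are not comparable as levels, so the higher Hif1a signal does not say that it was the more abundant transcript. The arrays of 1 culture differed by 0.01 to 0.42 for Epas1 and by 0.01 to 0.19 for Hif1a on the log2 scale. Array medians over all probe sets lay between 5.287 and 5.554 except for 5.782 on array 1 of YR219P5_RC, the HF bulk culture recovered from skin, and array pairs of a culture correlated at 0.9889 to 0.9979 across probe sets. On the arrays of YR219P5_RC, Epas1 read 6.63 and 6.21.

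In ungrafted TEC cultures the Epas1 log2 signal was 6.51 in PRE16cl11_VII, 6.10 in PRP1cl11_VII, 5.41 in the bulk culture PRP4mo_bulk and 6.47 in PRP4mo_Cl09. After the first transplantation it was 8.07 in Clone_217, 8.07 in Clone_218, 7.25 in Clone_57 and 8.24 in the bulk culture Clone_907. After the second it was 8.09 in Clone_287, 10.09 in Clone_347, 7.64 in Clone_194 and 8.88 in the bulk culture Clone_354. All 8 grafted TEC cultures therefore lay above all 4 ungrafted ones, a separation also seen, in that direction, for 2.26% of all probe sets (346) and, in the other, for 2.3% (352). Since Epas1 was picked from this contrast, nothing further is read from the separation. The group means were 6.12 ± 0.51 in ungrafted cultures, 7.91 ± 0.44 after the first and 8.67 ± 1.07 after the second transplantation (SD, n = 4 each).

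**Figure D1:**
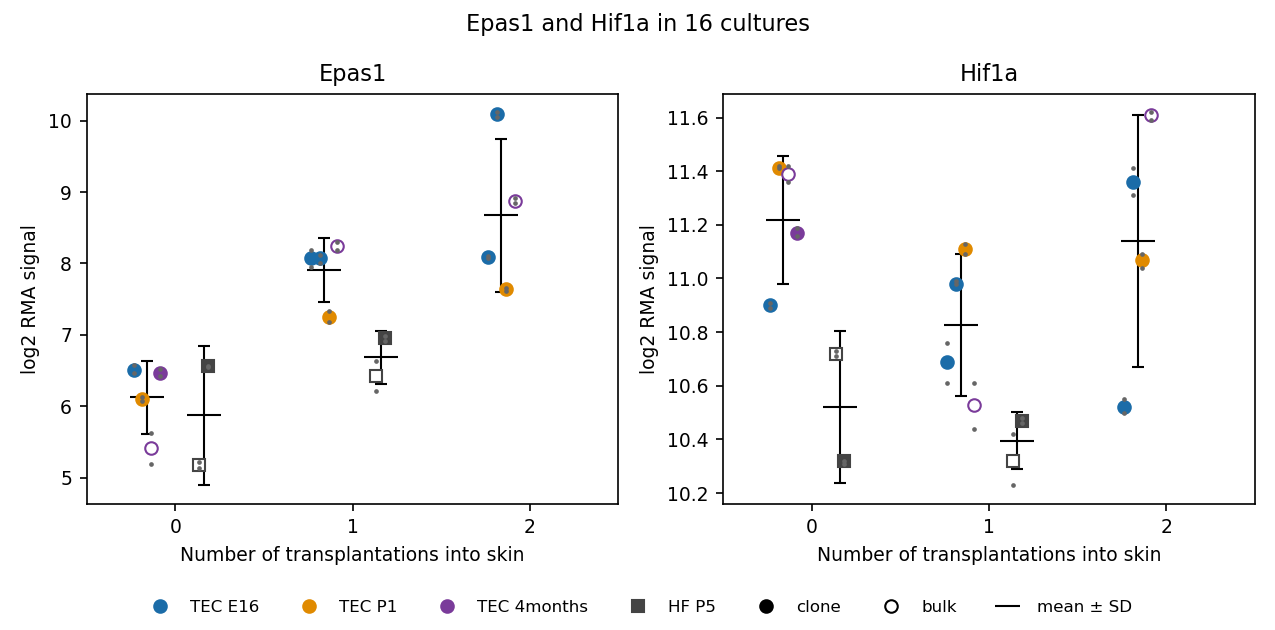
Log2 RMA signal of Epas1 and Hif1a against the number of transplantations into skin. Large symbols are culture means (circles TEC, coloured by donor stage; squares HF; open symbols bulk cultures), small dots are single arrays, and bars are the group mean ± SD; the vertical axes differ between the panels and do not start at 0. Grafted TEC cultures sit between 7.25 and 10.09 for Epas1, above ungrafted TEC cultures at 5.41 to 6.51, while the Hif1a values of the TEC groups overlap.

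Relative to ungrafted TEC cultures, Epas1 was higher by 1.78 on the log2 scale after the first transplantation (3.45-fold) and by 2.55 after the second (5.86-fold). These differences share the ungrafted cultures. Of these, PRP4mo_bulk read lowest at 5.41, within the 5.287 to 5.554 of the array medians on all but 1 array. A signal this low was not shown to lie above background. Cultures grafted a second time exceeded those grafted once by 0.77 (1.70-fold), and their values overlapped. Without Clone_347 that last difference was 0.30, and the difference of the second grafting from ungrafted cultures was then 2.08. Leaving out each of the 16 cultures in turn kept the difference of the first grafting between 1.55 and 2.0.

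The same values can be read by donor stage. Among E16 cultures Epas1 was 6.51 in the ungrafted clone, 8.07 and 8.07 in clones grafted once, and 8.09 and 10.09 in clones grafted a second time. Among P1 clones it was 6.10, 7.25 and 7.64 in the same order of states. Among cultures from 4-month donors it was 5.41 and 6.47 before grafting, 8.24 after the first and 8.88 after the second transplantation. Since all 8 grafted cultures lie above all 4 ungrafted ones, each stage has to show this order too, and at E16 the states after the first and the second grafting differ little apart from Clone_347. The 3 bulk TEC cultures, all from 4-month donors, read 5.41, 8.24 and 8.88.

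For donor stage, the model held the 12 TEC cultures and adjusted for transplantation state. Epas1 averaged 7.25 ± 1.60 in cultures from 4-month donors (SD, n = 4) and 8.17 ± 1.27 in E16 cultures (n = 5), and the state-adjusted log2 difference was −0.29, given without a test because the model includes the cultures Epas1 was picked from. It was 0.01 without Clone_347. Hif1a averaged 11.17 ± 0.47 in cultures from 4-month donors and 10.89 ± 0.32 in E16 cultures, with a state-adjusted difference of 0.23 ± 0.21 (SE; limma adjusted p = 0.776). Hif1a did not pass the threshold, an adjusted p under 0.05, which 0.0914% of all probe sets passed in this comparison. The 3 P1 cultures averaged 7.0 ± 0.80 for Epas1 and 11.20 ± 0.19 for Hif1a.

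Grafted HF cultures had Epas1 signals of 6.42 in YR219P5_RC and 6.95 in Clone_54, against 5.18 in YR219P5_Bulk_V and 6.56 in YR219P5cl7 before grafting. The 5.18 lay below the lowest array median and was not shown to lie above background. The grafted bulk culture lay below the ungrafted clone, so the groups overlapped. The difference was 0.82 ± 0.66 (SE) on the log2 scale with a 95% interval of −0.61 to 2.24 (limma adjusted p = 0.679). It ranged from 0.13 without YR219P5_Bulk_V to 1.5 without YR219P5cl7, so its size rests on which ungrafted HF culture is used. In the comparison of grafted with ungrafted HF cultures 0 of 15316 probe sets (0%) passed the limma test and 1354 had an unadjusted p under 0.05. The difference of Epas1 with the first transplantation was larger in TEC than in HF cultures by 0.97, a value that was not tested because it uses the ungrafted TEC cultures.

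Between tissues, TEC cultures grafted once had higher Epas1 signals than grafted HF cultures, with no overlap, at 7.25 to 8.24 in TEC and 6.42 to 6.95 in HF cultures. In groups of 4 and 2 cultures such a separation is frequent: 6.37% of all probe sets lay higher in this way and 19.2% lower. The log2 difference was 1.22 ± 0.57 (SE; 2.33-fold; 95% interval −0.01 to 2.45), and it did not pass the threshold (limma adjusted p = 0.295), which 0.0718% of probe sets passed. The SE here, and in the comparison of HF cultures above, comes from the spread within all groups, including those Epas1 was picked from. For TEC cultures grafted a second time the difference from grafted HF cultures was 1.99 (3.97-fold, not tested), and the values did not overlap, as for 9.32% of probe sets in that direction. Before grafting, Epas1 averaged 6.12 ± 0.51 in TEC cultures (n = 4) and 5.87 ± 0.97 in HF cultures (SD, n = 2), a difference of 0.25 with overlapping values (not tested). Without YR219P5_Bulk_V it was −0.43. In order of mean level the groups ran from ungrafted HF and ungrafted TEC through grafted HF to TEC grafted once and TEC grafted a second time. Among neighbours in this order, grafted HF and TEC grafted once did not overlap, the separation set against 6.37% above, and the other neighbours overlapped.

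The Hif1a values of the TEC states lay together. In ungrafted TEC cultures its log2 signal was 10.90 in PRE16cl11_VII, 11.41 in PRP1cl11_VII, 11.39 in PRP4mo_bulk and 11.17 in PRP4mo_Cl09. After the first transplantation it was 10.69 in Clone_217, 10.98 in Clone_218, 11.11 in Clone_57 and 10.53 in Clone_907, and after the second it was 10.52 in Clone_287, 11.36 in Clone_347, 11.07 in Clone_194 and 11.61 in Clone_354. The 3 states overlapped throughout, and the highest and the lowest TEC culture were both grafted a second time. The state means were 11.22 ± 0.24, 10.83 ± 0.27 and 11.14 ± 0.47 in order of transplantation (SD, n = 4 each).

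The log2 difference of Hif1a from ungrafted TEC cultures was −0.39 ± 0.21 (SE; 95% interval −0.84 to 0.06; limma adjusted p = 0.409) after the first transplantation, where 0.516% of probe sets passed. It was −0.08 ± 0.21 (interval −0.53 to 0.37; adjusted p = 0.894) after the second, where 3.86% passed, and this small difference turned to 0.13 without Clone_287. The interval for the second transplantation thus reaches no further than 0.53 in either direction. Cultures grafted a second time differed from those grafted once by 0.31 ± 0.21 (adjusted p = 1.0). In that comparison 0 probe sets (0%) passed limma's test, with 532 at an unadjusted p under 0.05. A comparison added after the values were seen, of both grafted states with the ungrafted one, gave −0.24 ± 0.18 for Hif1a (adjusted p = 0.513; 4.83% of probe sets passed) and 2.17 for Epas1 (4.49-fold, not tested).

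In HF cultures Hif1a read 10.32 in YR219P5_RC and 10.47 in Clone_54 after grafting, against 10.72 in YR219P5_Bulk_V and 10.32 in YR219P5cl7 before. The groups overlapped, and the difference was −0.12 ± 0.30 (SE; adjusted p = 0.903). Its sign rests on YR219P5_Bulk_V, without which it was 0.08. The difference of differences between tissues was −0.27 ± 0.36 for Hif1a (limma adjusted p = 0.885), and 0 probe sets (0%) passed for this interaction, with 866 at an unadjusted p under 0.05.

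Hif1a signals lay higher in TEC than in HF cultures. TEC cultures ran from 10.52 to 11.61 (11.06 ± 0.35, SD, n = 12) and HF cultures from 10.32 to 10.72 (10.46 ± 0.19, n = 4). Group against group the values did not overlap in the 3 comparisons that follow, with the TEC cultures above the HF cultures, as for 12.8% of all probe sets before grafting, 6.37% after the first and 9.32% after the second transplantation of TEC. Over all 16 cultures the tissues overlapped. Hif1a was 0.70 ± 0.26 (SE) higher in TEC than in HF cultures before grafting (1.63-fold; 95% interval 0.15 to 1.25). It was 0.43 ± 0.26 higher in TEC cultures grafted once than in grafted HF cultures (1.35-fold; interval −0.12 to 0.98), and 0.74 ± 0.26 higher in TEC cultures grafted a second time (1.67-fold; interval 0.19 to 1.30). None passed after adjustment over all probe sets (limma adjusted p = 0.230, 0.380 and 0.147 in that order), where 1.55%, 0.0718% and 0.0457% of probe sets did. Averaged over the ungrafted and once grafted states, a comparison added after the values were seen, the difference was 0.56 ± 0.18 (1.48-fold; interval 0.17 to 0.96; limma adjusted p = 0.0913; 4.17% passed). The last 2 of the 3 comparisons share the grafted HF cultures.

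Besides the alpha subunits themselves, 8 lists with 89 measured genes were followed: partners of the alpha subunits, oxygen sensing and degradation, coactivators and competitors, targets shared by both factors, glycolysis, genes described as chiefly Epas1 targets, iron handling, and other proteins of the same structural family. After the second transplantation 4 of the 89 were higher and 1 was lower than in ungrafted TEC cultures, which is 5.62% of them against 3.86% of all probe sets. After the first transplantation 1 of 89 (1.12%) was higher, against 0.516% of all probe sets. The median log2 difference of the 89 was 0.02 after the second transplantation and −0.01 after the first, and that of all probe sets was 0.01 in both comparisons. All of these calls were lost when only clonal cultures were used, a fit with 3 cultures in each TEC group and 1 in each HF group.

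Among the partners, Bmal1, a circadian clock factor that can pair with alpha subunits, was higher after the second transplantation by 0.56 ± 0.10 (SE; 1.47-fold; limma adjusted p = 0.0128). Its values were 7.94, 7.93, 7.79 and 7.92 after the second grafting and 7.33, 7.40, 7.40 and 7.22 before grafting, with no overlap (6.43% of all probe sets were higher without overlap in this comparison and 5.43% lower), and the call held without each of the 16 cultures in turn. After the first grafting the difference was 0.41 (adjusted p = 0.0892). Arnt, the common partner, measured 8.94, 9.09, 8.97 and 9.22 after the second grafting, against 8.89, 8.51, 8.70 and 8.79 before it. Its difference of 0.33 ± 0.11 did not pass (adjusted p = 0.113), although the values did not overlap. Bmal2, the paralogue of Bmal1, differed by 0.65 (adjusted p = 0.251), Arnt2 by −0.06 (adjusted p = 0.868) and Hif3a, the third alpha subunit gene, by −0.10 (adjusted p = 0.704). Hif3a did not exceed 5.26 in any culture.

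None of the 11 oxygen sensing and degradation genes passed in any of the 9 comparisons, in which 0% to 3.86% of all probe sets passed. A count of 0 therefore says nothing particular of so short a list. The nearest was Hif1an, the hydroxylase that blocks coactivator binding to the alpha subunits. It averaged 7.69 after the second transplantation and 8.27 in ungrafted TEC cultures, a difference of −0.58 ± 0.15 (limma adjusted p = 0.0527). Its values did not overlap, as for 5.43% of all probe sets in that direction. After the first transplantation it differed by −0.57 (limma adjusted p = 0.120). Egln3, a prolyl hydroxylase gene that is itself a hypoxia target, had the widest difference of the list at 1.26 ± 0.52 after the second transplantation (adjusted p = 0.192) and 0.71 after the first (adjusted p = 0.574). Egln1, the main prolyl hydroxylase for Hif1a, differed by −0.05 and Egln2 by −0.16 after the second transplantation. Vhl, the substrate receptor of the ligase, differed by 0.36 (adjusted p = 0.204). The ligase scaffold members Eloc (−0.38), Elob (−0.21), Cul2 (−0.10) and Rbx1 (−0.21) were all negative without passing, and the ligase genes Siah1 and Siah2, whose products degrade Egln enzymes, differed by 0.06 and −0.08.

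Of 25 measured targets shared by both factors, 2 were higher after the second transplantation, 0 were lower, and 15 had a positive difference (median 0.10). Of all probe sets 3.86% passed in this comparison. Car12, a membrane carbonic anhydrase of pH control, measured 12.26, 11.82, 11.46 and 11.77 after the second grafting and 9.95, 10.42, 10.43 and 10.28 before grafting. After the first grafting it measured 12.22, 11.36, 11.52 and 11.89. Every grafted TEC culture thus exceeded every ungrafted one, as for 2.26% of all probe sets, with 2.3% separated in the other direction. For the first grafting alone 3.92% of all probe sets lay higher without overlap and 4.03% lower. The difference was 1.55 ± 0.20 (SE; 2.94-fold; limma adjusted p = 0.00335) after the second and 1.47 ± 0.20 (2.78-fold; adjusted p = 0.00872) after the first transplantation, and neither call was lost without any single culture.

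Slc2a1, the glucose transporter GLUT1, measured 12.83, 13.10, 12.67 and 12.72 after the second grafting, against 12.05, 12.50, 11.86 and 12.23 before it. The values did not overlap, as for 6.43% of all probe sets in that direction. The difference was 0.67 ± 0.13 (SE; 1.59-fold; limma adjusted p = 0.0177). This call was lost without PRP4mo_bulk, the TEC culture with the lowest Slc2a1 and the lowest Epas1 signal. It was also lost when only the compared groups were fitted (limma adjusted p = 0.0558). After the first grafting the difference was 0.55 (adjusted p = 0.0840). The other shared targets did not pass. Vegfa, the vascular growth factor, differed by −0.19 (adjusted p = 0.691), Adm, the vasodilator adrenomedullin, by 0.18 (adjusted p = 0.767), Bnip3, which promotes removal of mitochondria, by −0.60 (adjusted p = 0.335) and Bhlhe40, a repressor, by 1.02 (adjusted p = 0.0785).

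**Figure D2:**
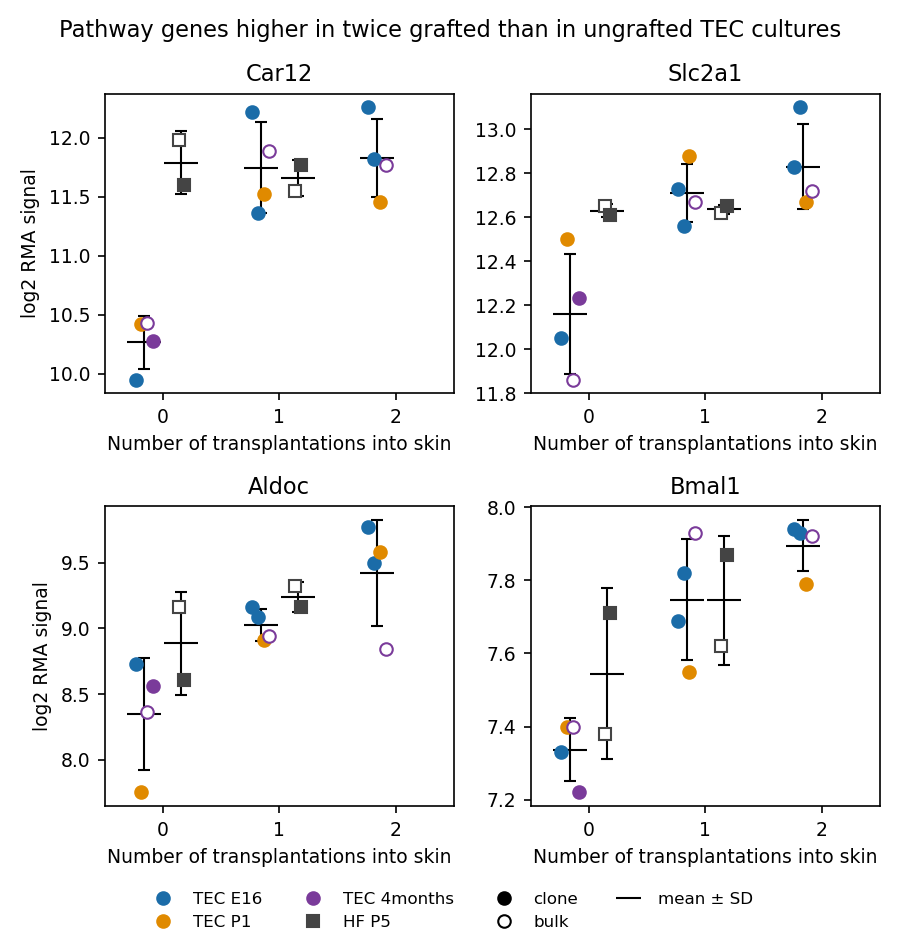
Log2 RMA signal of the 4 pathway genes that were higher in TEC cultures after the second transplantation than before grafting, against the number of transplantations. Symbols are culture means (circles TEC, squares HF, open symbols bulk cultures) and bars are the group mean ± SD; the vertical axes differ and do not start at 0. Car12 lies at 11.36 to 12.26 in grafted and at 9.95 to 10.43 in ungrafted TEC cultures, while HF cultures read 11.55 to 11.98 in both states.

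In the glycolysis list 1 of 17 genes was higher after the second transplantation, where 3.86% of all probe sets passed, and the median difference was −0.02. That gene was Aldoc, aldolase C, at 9.77, 9.50, 9.58 and 8.84 after the second grafting and 8.73, 7.75, 8.36 and 8.56 before grafting. The difference was 1.07 ± 0.22 (SE; 2.10-fold; limma adjusted p = 0.0195), and the call was lost without PRP4mo_bulk, without Clone_347 or without Clone_194. It was also lost when only the compared groups were fitted (limma adjusted p = 0.0598). Aldoa, the main aldolase of most tissues, differed by −0.01, Pgk1 by −0.16 and Ldha, lactate dehydrogenase A, by −0.49 (adjusted p = 0.175). Hk2, an inducible hexokinase, differed by −0.16 (adjusted p = 0.747).

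Of 11 measured genes described as chiefly Epas1 targets, 0 were higher and 1 was lower after the second transplantation, with a median of 0.02. There 3.86% of all probe sets passed. The lower one was Ccnd1, cyclin D1, which averaged 11.88 after the second grafting and 12.43 before grafting (−0.55 ± 0.14; limma adjusted p = 0.0482). Its call was lost in 13 of the 16 fits that left out 1 culture, with each array centred on its median and with donor stage in the model. Epo, erythropoietin, differed by 0.11 (adjusted p = 0.548), Slc11a2, an iron importer, by 0.07 and Vldlr, a lipoprotein receptor, by −0.28. None of the 6 coactivator and competitor genes, 7 iron handling genes or 8 other family members passed after either transplantation. The share of all probe sets that passed was 0.516% after the first and 3.86% after the second. Among the other family members, Ahr, the receptor for dioxin-like ligands, differed by 1.39 ± 0.39 (limma adjusted p = 0.0632) after the second grafting.

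**Figure D3:**
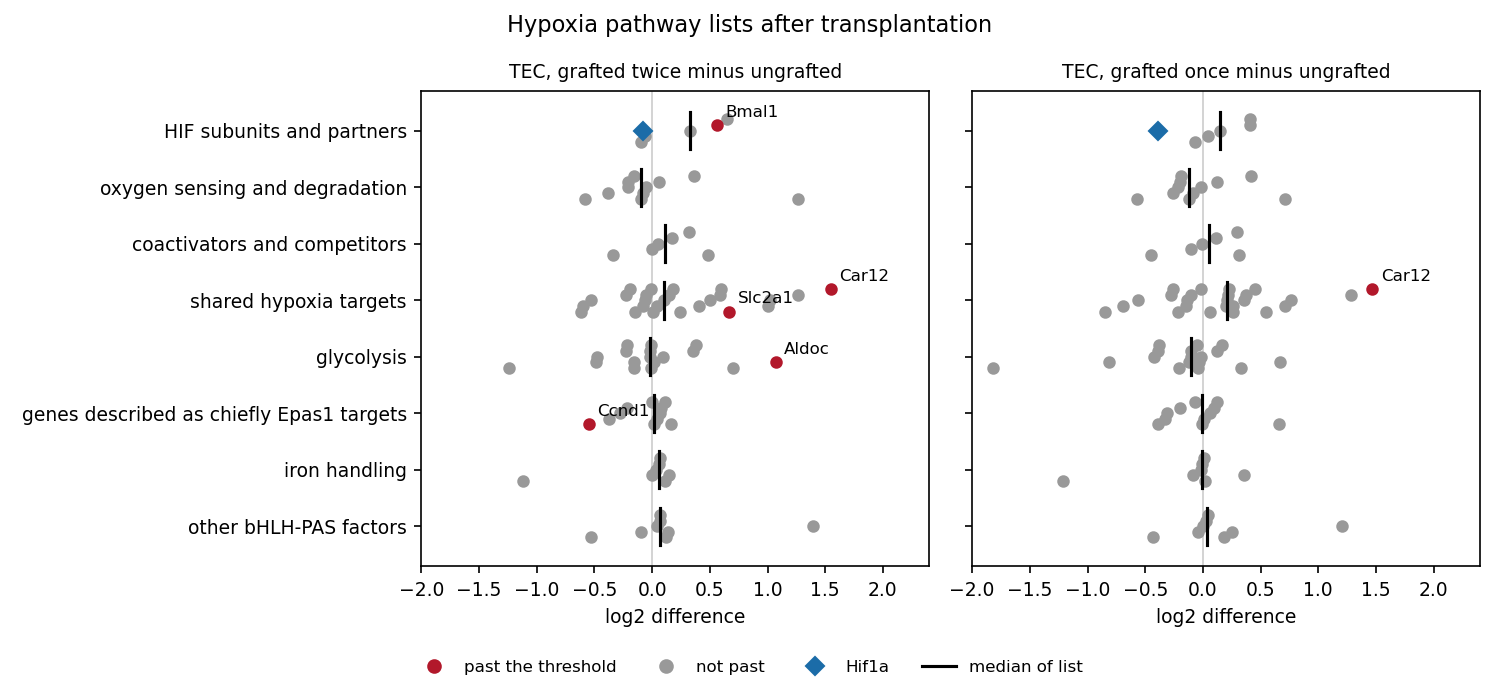
Log2 difference of each measured gene of the 8 pathway lists in TEC cultures grafted a second time (left panel) or once (right panel) from ungrafted TEC cultures, 1 point per gene, with the list median as a vertical bar and Hif1a as a diamond. Epas1 is not drawn. List medians lie between −0.12 and 0.33, and the 5 genes past the threshold in the left panel are Bmal1, Car12, Slc2a1, Aldoc and Ccnd1, of which Car12 also passes in the right panel.

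In grafted against ungrafted HF cultures 0 of the 89 genes passed, as did 0% of all probe sets, so this count says nothing particular of the pathway. Adm, at 9.52 and 9.89 after grafting and 8.17 and 8.33 before, had a difference of 1.45 ± 0.34 (SE; limma adjusted p = 0.562). Its values did not overlap, as for 30.2% of all probe sets in that direction and 11.1% in the other. Car12 measured 11.55 and 11.77 in grafted and 11.98 and 11.60 in ungrafted HF cultures and differed by −0.13 (adjusted p = 0.892). Slc2a1 differed by 0.01 (adjusted p = 0.995).

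Between tissues before grafting, 3 of the 89 genes were higher in TEC than in HF cultures and 3 were lower, which is 6.74% of them against 1.55% of all probe sets. Hk2 was higher in TEC cultures by 1.52 ± 0.25 (SE; 2.86-fold; limma adjusted p = 0.00996), Adm by 1.59 ± 0.30 (3.02-fold; adjusted p = 0.0203) and Mxi1, a repressor that opposes Myc, by 0.77 ± 0.17 (1.70-fold; adjusted p = 0.0399). Car12 was lower in TEC cultures by 1.51 on the log2 scale (means 10.27 in TEC and 11.79 in HF cultures; adjusted p = 0.00955), and its means in TEC cultures grafted once and a second time were 11.74 and 11.83. Bmal2 averaged 4.85 in TEC and 6.68 in HF cultures (−1.83 ± 0.37; adjusted p = 0.0292). Bhlhe41, a repressor related to Bhlhe40, averaged 3.85 in TEC and 8.09 in HF cultures (−4.23 ± 0.54; adjusted p = 0.00401), and a signal this low in TEC cultures was not shown to lie above background. All 6 calls were lost without YR219P5_Bulk_V, which leaves 1 ungrafted HF culture. The Bmal2 call was also lost without PRE16cl11_VII, PRP4mo_bulk, PRP4mo_Cl09 or YR219P5cl7. The Mxi1 call was lost in 8 of the 16 fits that left out 1 culture, with centred arrays and with only the compared groups. After grafting, 0 of the 89 passed in either comparison of TEC with HF cultures, where 0.0718% and 0.0457% of all probe sets passed.

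**Figure D4:**
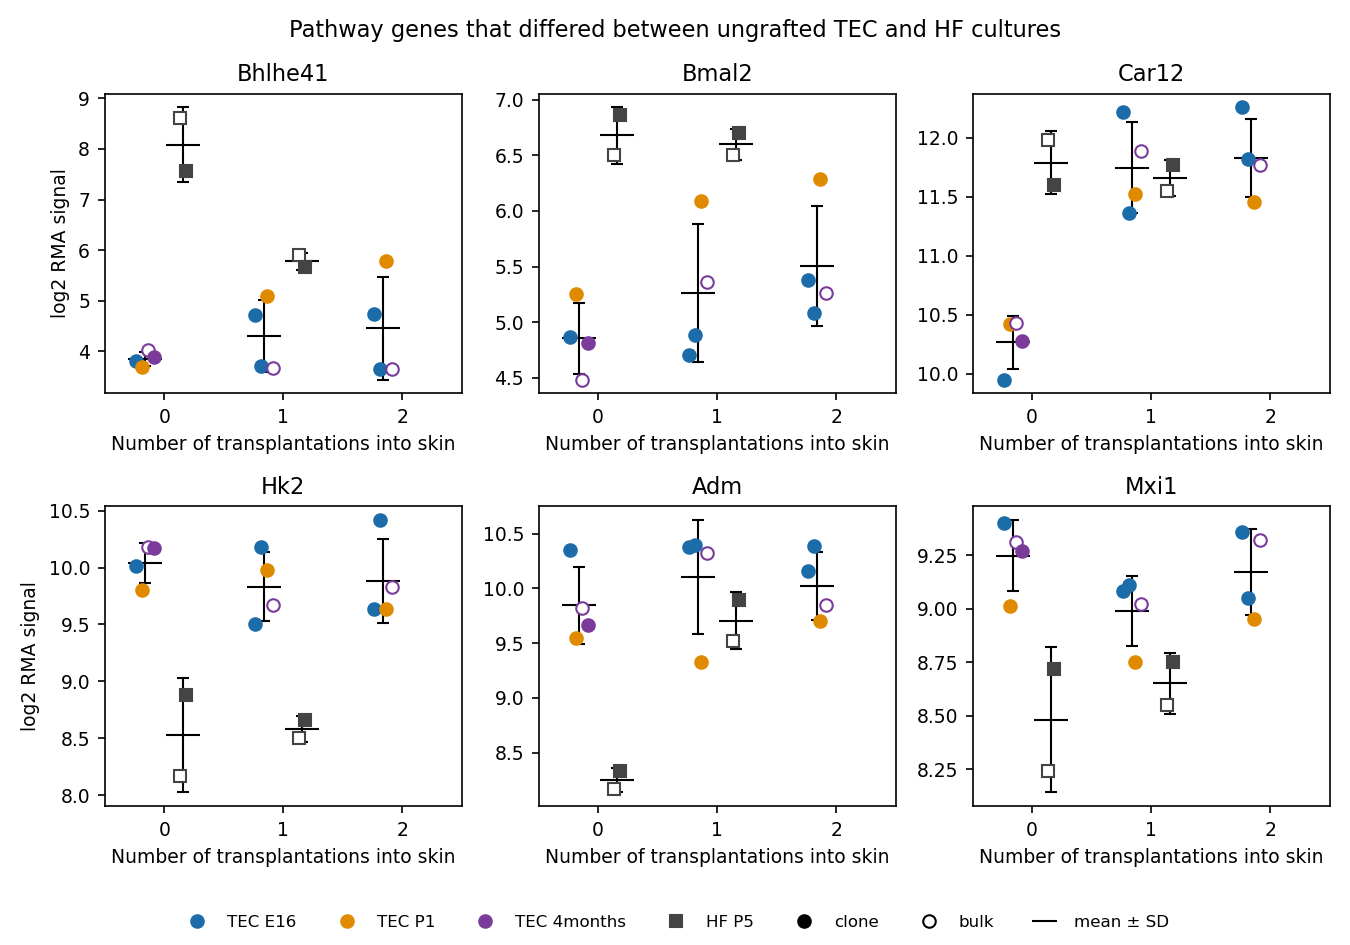
Log2 RMA signal of the 6 pathway genes that differed between ungrafted TEC and ungrafted HF cultures, against the number of transplantations. Symbols are culture means (circles TEC, squares HF, open symbols bulk cultures) and bars are the group mean ± SD; the vertical axes differ and do not start at 0. Hk2 lies at 9.50 to 10.42 in all TEC cultures and at 8.17 to 8.88 in all HF cultures, whereas for Adm the grafted HF cultures, at 9.52 and 9.89, lie within the TEC range.

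Because Epas1 is known from endothelium, markers of other cell types were read in the same cultures. The mean log2 signal of 11 measured endothelial markers was 4.51 to 4.61 in TEC cultures grafted once. It was 4.44 to 4.65 in those grafted a second time and 4.40 to 4.62 in ungrafted ones. Pecam1, Kdr, Tek, Emcn and Erg lay under 5 in every culture. After either transplantation 0 of 11 were called. Of all probe sets, 0.516% passed after the first and 3.86% after the second transplantation. A count of 0 therefore says nothing particular of so short a list. The 12 fibroblast markers averaged 5.73 to 5.94 after the first and 5.65 to 5.94 after the second transplantation, against 6.05 to 6.46 before grafting. Of these, Dcn, Lum, Pdgfrb and Postn lay under 5 in every culture. Others read higher: in TEC cultures Fn1 averaged 11.68 after the first and 11.5 after the second transplantation, and Vim 9.51 and 8.69. Among the 12 markers 1 passed, the mesenchymal factor Twist1, at 6.03 after the second grafting and 7.24 before (−1.21 ± 0.24; limma adjusted p = 0.0177). The part of these shifts, or of feeder cell RNA, in the Epas1 values was not tested. In cultures of mixed cells, a change in the share of a cell type and a change of transcript per cell cannot be told apart. Epithelial markers averaged 9.48 to 10.64 after the first and 9.51 to 10.36 after the second transplantation, against 10.28 to 10.75 in ungrafted TEC cultures. In HF cultures they averaged 9.34 to 9.45 after grafting and 8.68 to 9.29 before. Of the 6 measured, 1 was lower after the second grafting, the simple epithelial keratin gene Krt8, at 9.18 against 11.27 before grafting (−2.09 ± 0.54; limma adjusted p = 0.0482; its other probe set −2.23, adjusted p = 0.0680). The 6 thymic epithelial markers averaged 5.89 to 6.13 after the first and 5.63 to 6.16 after the second transplantation, against 6.13 to 6.73 before. Of these 1 was lower after the second, the thymic development factor gene Pax1, at 5.24 against 6.54 before grafting (−1.30 ± 0.34; limma adjusted p = 0.0480). Pax1 was split before grafting, at 7.25 in PRP1cl11_VII and 7.48 in PRP4mo_bulk but 5.71 in PRE16cl11_VII and 5.73 in PRP4mo_Cl09. After the second grafting it ran from 4.99 to 5.55. The 4 measured hair follicle markers averaged 5.98 to 6.58 after the first and 5.78 to 6.72 after the second transplantation, against 5.27 to 5.76 before, with 0 of 4 called after either. The part of these lists in the Epas1 values was not tested. The haematopoietic list lay between 4.30 and 4.96, and the melanocyte list between 3.69 and 4.48, in every culture.

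The genes whose pattern over the 16 cultures was most like that of Epas1, among 4273 probe sets with an SD of at least 0.3, were Zfp282 (Pearson r = 0.93, Spearman rho = 0.94), Ppp1r9b (r = 0.92), Tnk1 (r = 0.91), Coro7 (r = 0.91) and Slc6a8 (r = 0.91). Zfp282, a zinc finger gene, averaged 7.81 in ungrafted TEC cultures, 8.37 after the first and 8.49 after the second transplantation, and 7.97 in grafted and 7.81 in ungrafted HF cultures. Over the 12 TEC cultures alone its r was 0.92. Slc6a8, the creatine transporter gene, averaged 7.13, 7.84 and 7.92 in TEC cultures in order of transplantation. The most opposite patterns were those of Prkag1 (r = −0.95), a regulatory subunit gene of the energy sensor AMPK, Dhrs1 (r = −0.93) and Ppil3 (r = −0.92).

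Most like Hif1a were Cdcp1, a membrane protein of epithelial cells (r = 0.97, rho = 0.96), Itga5, an integrin subunit gene (r = 0.90), Clip2 (r = 0.90), Samd4b (r = 0.90) and Wnt5a, a secreted Wnt ligand (r = 0.89). Cdcp1 averaged 9.20, 8.97 and 9.14 in TEC cultures in order of transplantation, and 8.49 in grafted and 8.63 in ungrafted HF cultures. Its r over the 12 TEC cultures was 0.96. The most opposite were Slc31a2 (r = −0.90), Mpc1 (r = −0.86) and Skint1 (r = −0.85). No gene appeared in the lists of both members. These correlations describe 16 cultures that share group, tissue and array scaling, and they carry no test.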

How the data were processed

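RNA of 16 cultures was measured on 32 Affymetrix rat arrays, 2 per culture. The authors deposited log2 probe set values that came from RMA, with Affymetrix Expression Console as the software, per the submitters' processing notes, and the log2 base was read from their range of 1.526 to 14.031. Array build, background setting and versions are not given in the sources used here. Of 29215 probe sets, 15316 had exactly 1 gene symbol, 317 several and 13582 none. Of the 15316, 15279 were found by Entrez gene in the RefSeq table, and 0 symbols changed.

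Both arrays of a culture were averaged. The tests used limma 3.58.1 (R 4.3.3; lmFit, eBayes) on 16 culture means with 1 coefficient per group, and p-values were adjusted by Benjamini-Hochberg over the 15316 probe sets, with a threshold of 0.05. Donor stage was tested in the 12 TEC cultures with transplantation state in the model, and no test is given there for Epas1. A gene with several probe sets was counted by the one with the highest mean. On simulated data for the second grafting against ungrafted cultures, limma recovered 88 of 100 changes of 1 and 93 of 100 changes of 2 (log2), with 12 false calls in all. The number of cultures limits precision; arrays have no count depth.

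The members and lists were chosen with earlier results of these data known. Named were all measured partners and oxygen sensing genes, up to 4 called members of each other list, and the 5 most alike and 3 most opposite patterns; further genes were picked from the lists after their values were seen. Array numbers were not taken to pair arrays across cultures in the main fit. The correlation of their deviations had a median of −0.0107 over 120 pairs of cultures. It ran from −0.635 to 0.574 and exceeded 0.1 in 23. Whether some arrays share a batch was not tested. Alternatives changed scaling, unit of replication, filter, variance model, cultures and covariates.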

Additional observations from a re-analysis of the deposited data

Results flagged for a closer look

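Within groups of 4 TEC cultures, 4 values of named pathway genes stood apart from the others of their group by Dixon's test, out of 36 gene and group combinations, of which chance flags about 1 in 20. Adm was 9.33 in Clone_57, against 10.32 to 10.40 in the other cultures grafted once. Bmal1 was 7.79 in Clone_194, against 7.92 to 7.94 in the others grafted a second time, and so remained above all ungrafted TEC cultures. Ccnd1 was 11.79 in Clone_217, against 12.09 to 12.15 in the others grafted once, and 12.20 in PRP4mo_bulk, against 12.47 to 12.53 in the other ungrafted TEC cultures. Neither Epas1 nor Hif1a had such a value in any group of 4, although Epas1 in Clone_57 (7.25, against 8.07 to 8.24 in the others grafted once) came close to the limit.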

How the results depend on the processing

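Of 444 recalculated differences of Epas1 and Hif1a (18 results), 435 kept their side of the threshold where tested and their direction, except that the untested difference of Epas1 between ungrafted TEC and HF cultures was −0.19 with clonal cultures only and −0.43 without YR219P5_Bulk_V, against 0.25. The sign also changed in 4. For Hif1a, with no call, these were in grafted against ungrafted HF cultures (0.15 with clonal cultures only, −0.32 to 0.08 leaving out 1 culture) and after the second grafting (−0.24 to 0.13). For Epas1 the sign changed in 4-month against E16 cultures (−0.52 to 0.01), a difference given without a test. Hif1a passed the threshold in 5: TEC against HF before grafting (0.70) and TEC grafted a second time against grafted HF (0.74), each with single arrays fitted under a random culture block and again with the array number as a replicate block (adjusted p = 0.0143 to 0.0185), and TEC grafted a second time against grafted HF also without Clone_287 (0.95; range over cultures left out 0.59 to 0.95). The fit with the culture block alone used 1 correlation between arrays of a culture, 0.559, for all probe sets. For Hif1a, arrays of a culture differed by a median of 0.04, against an SD of 0.32 between cultures within groups. The array fits thus count arrays in part as replicates. Why Hif1a passed in these 5 was not tested.

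Counts of probe sets past the threshold moved more. With arrays as the unit they were 2070 for the second grafting against ungrafted TEC, 1183 for the first, 49 for HF grafting, 977 for ungrafted TEC against HF, 249 and 721 for TEC grafted once and a second time against grafted HF, 43 for the interaction and 488 for donor stage. With the replicate block added they were 2014, 1132, 36, 944, 219, 670, 34 and 448 in the same order. With clonal cultures only they were 35 for the second grafting, 0 for the first, 4 for ungrafted TEC against HF and 0 for both grafted comparisons with HF. With donor stage in the model they were 143 for the first grafting, 423 for ungrafted TEC against HF, and 33 and 25 against grafted HF. With only the compared groups they were 17 for the first grafting and 0 and 0 against grafted HF. TEC grafted a second time against grafted HF gave 91 with centred arrays and 14 without array 1 of YR219P5_RC, and donor stage gave 27 with trend and robust variances. Leaving out 1 culture gave 149 (without PRP4mo_bulk) to 674 for the second grafting, 8 (without Clone_217) to 148 (without Clone_57) for the first, 0 to 136 (without Clone_287) between both, 0 to 260 (without YR219P5cl7) for HF grafting, 18 (without YR219P5_Bulk_V) to 375 for ungrafted TEC against HF, 0 to 12 and 0 to 450 (without Clone_287) against grafted HF, 0 to 75 for the interaction and 7 to 83 for donor stage. Centring arrays changed the split of higher and lower calls from 148 and 90 to 171 and 61 for ungrafted TEC against HF, and from 7 and 4 to 11 and 2, and from 5 and 2 to 85 and 6, for both grafted comparisons with HF. In these last 2, the median of all probe sets moved from −0.106 to 0.029 and 0.034, and for HF grafting from 0.102 to 0.005.

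Of the 89 pathway genes, those called after the second grafting numbered 19 with arrays as the unit, 3 with only the compared groups and 0 with clonal cultures, against 5.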
